A study of Mus musculus with 6 samples.

Results

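The genes described here are 6 keratins of simple epithelium, Krt7, Krt8, Krt18, Krt19, Krt20 and Krt23, and Vil1, which encodes villin. They were taken by name, 7 of the 19949 genes that received counts, and all 7 were among the 15066 genes tested. The series measured mRNA in colon tissue of BALB/c mice aged 6 to 8 weeks. One group of mice was STAT6-/-, lacking a working copy of a transcription factor that acts downstream of the receptors for interleukin-4 and interleukin-13, and the other was wild type (WT). Both groups received 3% DSS (dextran sulfate sodium, which damages the lining of the colon) for 3 days, so neither group shows the genes without DSS. Each genotype had 3 libraries, and the labels do not say whether these came from separate animals, so the p-values cover only the spread between these samples, part of which may be technical.

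Keratins are the intermediate filament proteins of epithelial cells, and a filament forms only when a type II keratin pairs with a type I keratin. Krt8 and Krt7 are type II, and Krt18, Krt19, Krt20 and Krt23 are type I. In the colon Krt8, Krt18 and Krt19 run through the whole crypt, while Krt20 marks the differentiated cells of the upper crypt and the surface. Villin is an actin-bundling protein of the microvilli that form the brush border on the luminal face of these cells, and it is a standard marker of intestinal epithelium.

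The libraries held 17122315 to 19555450 expected counts. Stat6 transcripts, which checked the labels, stood at 49.9, 38.5 and 53.2 CPM (counts scaled to library size) in the STAT6-/- libraries and 91.7, 104 and 88.8 CPM in WT, with no overlap. Stat6 fell by 1.01 ± 0.16 on the log2 scale (SE, adjusted p = 0.0134 by edgeR's quasi-likelihood test with Benjamini-Hochberg adjustment, as for every gene below). Xist, which acts in X chromosome inactivation in females, stood at 0.265 to 0.992 CPM in STAT6-/- and 352 to 545 CPM in WT, while the Y-linked Eif2s3y stood at 54.0 to 65.8 CPM in STAT6-/- and at 0 in WT. Every difference below is therefore one in which genotype and sex cannot be told apart. WT replicate 1 also stood apart by its keratins of stratified epithelium, described below. On the first principal component of all genes, with 61.4% of the variance, STAT6-/- replicate 2 lay at -21.7, between the other STAT6-/- libraries (-85.6 and -68.7) and WT (47.8 to 67.3). Krt20 and Vil1 were at their lowest STAT6-/- level in that library, and without it their log2 fold changes were 1.76 and 1.32.

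The 7 genes lie at 3 places in the mouse genome (build GRCm38.p6, mm10). The type II genes Krt7 (chr15:101412403-101427806) and Krt8 (chr15:101996711-102004342) share a cluster with the type I gene Krt18 (chr15:102028216-102032026). The other type I genes Krt20 (chr11:99428385-99438153), Krt23 (chr11:99477973-99493120) and Krt19 (chr11:100140810-100145926) lie in the type I cluster, and Vil1 lies alone at chr1:74409384-74435560. Krt20 and Vil1 were the only members that passed the test of genotype, so the 250 bases before the annotated start of each are shown, from RefSeq on GRCm38.p6. They are at chr11:99438154-99438403 on the minus strand for Krt20 and chr1:74409134-74409383 on the plus strand for Vil1. The capitals mark TATAAA in Krt20.

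Krt20: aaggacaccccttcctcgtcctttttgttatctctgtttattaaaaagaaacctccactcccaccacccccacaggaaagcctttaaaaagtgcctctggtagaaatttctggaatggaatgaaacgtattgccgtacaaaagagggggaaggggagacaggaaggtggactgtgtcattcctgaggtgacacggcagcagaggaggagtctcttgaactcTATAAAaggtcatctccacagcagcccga

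Vil1: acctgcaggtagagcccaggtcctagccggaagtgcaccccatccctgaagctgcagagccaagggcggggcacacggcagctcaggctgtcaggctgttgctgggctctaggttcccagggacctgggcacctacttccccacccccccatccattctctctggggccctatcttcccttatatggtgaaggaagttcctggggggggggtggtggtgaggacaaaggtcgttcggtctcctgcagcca

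The TATAAA of Krt20 ran from 29 to 24 bases before the start. A TATAAA on the same strand between 40 and 21 bases before the start was present in 1.87% of the 32851 RefSeq promoter windows, and it was searched for after the sequences were seen. The Vil1 stretch had none there and a higher G and C content, 62.8% against 48.0% for Krt20. STAT factors bind TTC and GAA parted by a few bases. TTC and GAA parted by 4 bases, a spacing known for STAT6, or by 3 bases, occurred in 6.95% and 8.30% of all windows of 300 bases. It occurred in none of the 6 members with a RefSeq promoter entry (Krt7, Krt8, Krt18, Krt20, Krt23 and Vil1), searched on both strands. TTTATG on either strand, a form of the site of the intestinal CDX factors, was in 11.9% of windows and among the members only in Krt23. There it read CATAAA and ran from 32 to 27 bases before the start, near the place of the TATAAA in Krt20. These counts describe letters in a short window and not binding.

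Krt20 and Vil1 mRNA rose in the STAT6-/- libraries, by 2.79-fold and 2.28-fold. The other 5 genes did not pass the test, and none was lower by its estimate. So 2 of 7 passed as higher and 0 as lower, where 11.4% of all tested genes passed as higher and 11.5% as lower. The groups did not overlap for 4 of the 7 (Krt8, Krt19, Krt20 and Vil1), where they did not overlap for 46.5% of all tested genes. Without WT replicate 1, 2 or 3 in turn, 0 of the 7 passed in edgeR (2, 4 and 2 at an unadjusted p under 0.05), 1 passed without STAT6-/- replicate 1, and DESeq2 on all libraries called 4. Calls over all genes depended as much on single libraries: without WT replicate 2 they were 21 higher and 10 lower, and without WT replicate 3 they were 12 and 6. The median log2 fold change over the 7 was 1.11, and over all tested genes 0.01. In whole tissue, fewer cells of a type and less RNA per cell cannot be told apart.

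**Figure D1:**
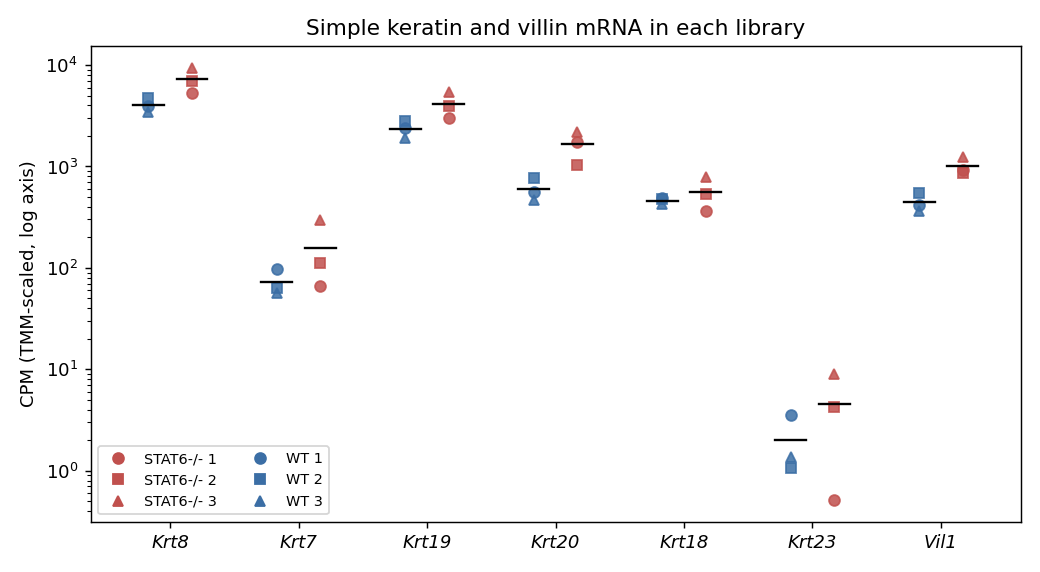
CPM of the 7 genes in each library on a log axis, scaled between libraries by TMM factors. Red symbols are STAT6-/- libraries, blue symbols are WT libraries, symbol shape gives the replicate number and bars are means of 3. The red and blue symbols separate for Krt8, Krt19, Krt20 and Vil1 and overlap for Krt7, Krt18 and Krt23.

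Krt8, the main type II keratin of the gut, stood at 5276, 6895 and 9447 CPM in STAT6-/- and 3964, 4784 and 3448 CPM in WT. Every STAT6-/- library was above every WT library, but the STAT6-/- libraries spread widely, with the highest in replicate 3. The means were 7206 ± 2103 and 4065 ± 673 CPM (SD, n = 3 each), and the log2 fold change of 0.83 ± 0.30 (SE) did not pass the test (adjusted p = 0.0861). It passed with DESeq2 (log2 fold change 0.84, adjusted p = 0.00979) and with scaling to library size alone (0.87, adjusted p = 0.0488).

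Krt7, the second type II keratin, is typical of ducts and bladder and low in colonic epithelium. It stood at 65.9, 112 and 295 CPM in STAT6-/- and 98.4, 63.0 and 57.0 CPM in WT. The groups overlapped, since the first STAT6-/- library lay below the first WT library. The log2 fold change was 1.11 ± 0.54 (SE, adjusted p = 0.165), and it was 0.33 without STAT6-/- replicate 3, the library with the highest value.

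Krt19, a type I keratin that lacks most of the tail domain of other keratins, stood at 2983, 3905 and 5475 CPM in STAT6-/- and 2380, 2824 and 1898 CPM in WT. As for Krt8, the groups did not overlap and STAT6-/- replicate 3 was highest. The log2 fold change of 0.80 ± 0.30 (SE) did not pass (adjusted p = 0.0952), and it passed with DESeq2 (0.82, adjusted p = 0.019). An alternative transcript of Krt19 held 6.9%, 15.9% and 0% of its FPKM in STAT6-/- and 24.2%, 15.9% and 13.3% in WT, and each of the other members was listed with 1 transcript.

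Krt18, the usual type I partner of Krt8, stood at 360, 540 and 785 CPM in STAT6-/- and 484, 475 and 424 CPM in WT. The WT libraries lay close together, and the STAT6-/- libraries fell on both sides of them. The log2 fold change was 0.28 ± 0.29 (SE, adjusted p = 0.489). With libraries scaled to 11 epithelial reference genes such as Epcam and Cdh1 it was 0.01.

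Krt20 stood at 1750, 1042 and 2207 CPM in STAT6-/- and 557, 769 and 468 CPM in WT, without overlap. The lowest STAT6-/- library was replicate 2 and the highest WT library was also replicate 2. The means were 1666 ± 587 and 598 ± 154 CPM (SD, n = 3 each), and Krt20 rose by a log2 fold change of 1.48 ± 0.34 (SE, adjusted p = 0.0260). The call was lost without STAT6-/- replicate 1 (adjusted p = 0.0544) and without WT replicate 1, 2 or 3 (adjusted p = 0.0842, 0.0797 and 0.112). Its log2 fold change was 1.27 to 1.76 over the 6 fits that left out a library.

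Krt23, a type I keratin found in only some epithelia, was barely detected, with 11, 82 and 169 counts in the STAT6-/- libraries and 60, 17 and 24 in WT. That was 0.513, 4.28 and 8.94 CPM in STAT6-/- and 3.55, 1.05 and 1.36 CPM in WT. The groups overlapped, and the lowest value of all 6 was a STAT6-/- library. The log2 fold change was 1.2 ± 0.93 (SE, adjusted p = 0.366), and leaving out STAT6-/- replicate 3 gave 0.30 while leaving out WT replicate 1 gave 1.91.

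Vil1 stood at 919, 868 and 1252 CPM in STAT6-/- and 419, 543 and 367 CPM in WT. The STAT6-/- libraries were all above the WT libraries. The means were 1013 ± 209 and 443 ± 90.4 CPM (SD, n = 3 each), and Vil1 rose by a log2 fold change of 1.19 ± 0.24 (SE, adjusted p = 0.0200). With libraries scaled to the epithelial reference genes, Vil1 rose by 0.97 (adjusted p = 0.0163) and Krt20 by 1.28 (adjusted p = 0.0169). The Vil1 call was lost without WT replicate 1, 2 or 3, with adjusted p of 0.0715, 0.0729 and 0.0954, while its log2 fold change stayed between 1.06 and 1.36 over the 6 fits.

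**Figure D2:**
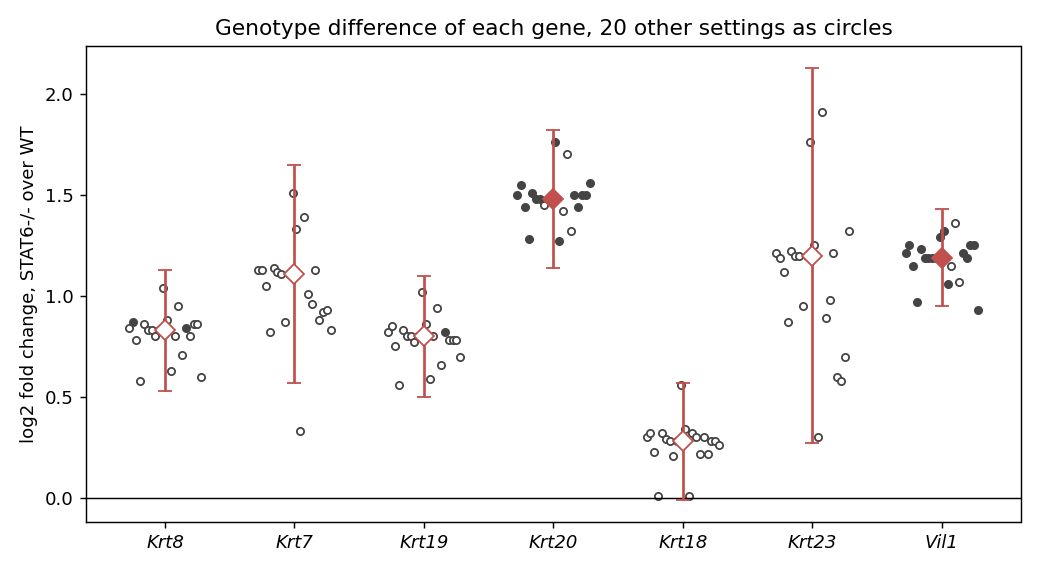
Log2 fold change of each gene, STAT6-/- over WT. Diamonds are the estimate with its SE, circles are 20 alternative settings, and filled symbols have an adjusted p below 0.05. All circles lie above 0, those of Krt18 reach 0.01, and most circles are filled only for Krt20 and Vil1.

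Levels of different genes can be compared only per length, on the FPKM scale. In STAT6-/-, Krt8 had an FPKM of 4032 ± 957.5 and Krt19 of 3070 ± 714, followed by Krt20 with 872 ± 299, Krt18 with 406 ± 133 and Vil1 with 327.5 ± 56.1 (SD, n = 3). In WT the order was Krt8 with 2190 ± 241, Krt19 with 1766 ± 264, Krt18 with 323.5 ± 16.3, Krt20 with 297 ± 60.0 and Vil1 with 137 ± 20.2. Krt7 followed at 45.3 to 179 in STAT6-/- and 36.4 to 60.6 in WT, and Krt23 was last at 0.36 to 5.58 and 0.63 to 2.25. Krt18 and Krt20 exchanged places between the genotypes, but in WT their values overlapped (313 to 342 and 246.5 to 363). Krt8 ranked 3, 5 and 3 among all genes by FPKM in the STAT6-/- libraries and 23, 23 and 35 in WT. The FPKM of all genes summed to less in STAT6-/- (480568 to 546287) than in WT (596118 to 621373), so FPKM levels are read within a library here.

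As shares of the summed keratin FPKM in a library, the most abundant pair overlapped between the genotypes. Krt8 held 46.2%, 49.0% and 47.3% in STAT6-/- and 46.1%, 47.5% and 48.7% in WT, and Krt19 held 34.8%, 38.2% and 35.7% against 39.2%, 38.6% and 36.5%. Neither had all libraries of a genotype on one side. Krt20 held 14.2%, 6.86% and 10.2% in STAT6-/- and 6.00%, 7.06% and 6.11% in WT, with STAT6-/- replicate 2 inside the WT range. Krt18 held 4.10%, 4.98% and 5.10% against 7.30%, 6.12% and 7.76%, lower in all 3 STAT6-/- libraries.

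**Figure D3:**
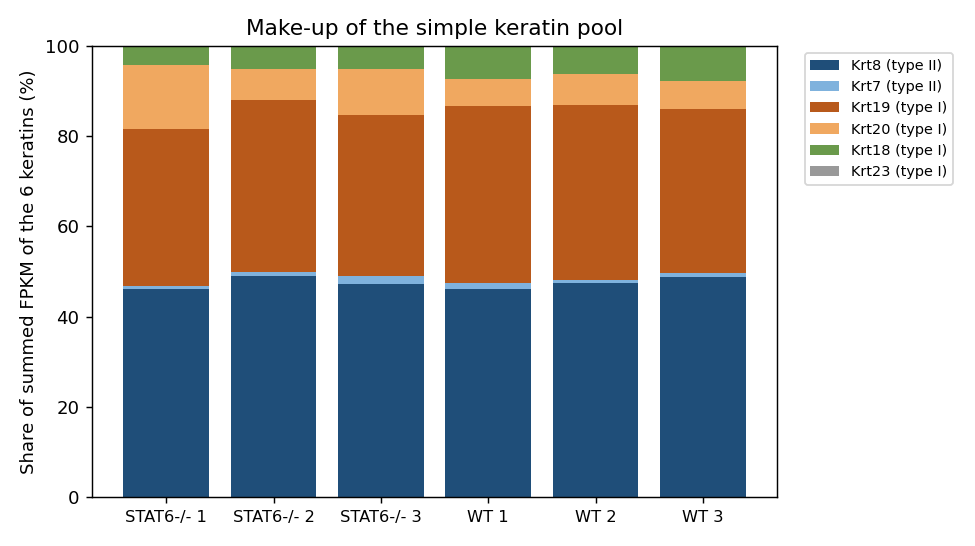
Share of each of the 6 keratins in their summed FPKM, in percent, for each library. Blue parts are type II and the others type I. Krt8 takes 46.1% to 49.0% in every library, the Krt20 part is largest in STAT6-/- replicates 1 and 3, and the Krt18 part is larger in every WT library.

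The ratio of type II to type I FPKM, which compares the sides that pair into filaments, was 0.883, 0.998 and 0.96 in STAT6-/- and 0.902, 0.932 and 0.984 in WT. It was near 1 in every library and did not differ beyond its spread (difference of 0.01 on the log2 scale, exact two-sided permutation p = 0.9). Krt8 over Krt18 was 11.3, 9.85 and 9.28 in STAT6-/- and 6.32, 7.76 and 6.27 in WT, without overlap. The difference was 0.58 on the log2 scale, 1.5-fold, with an exact permutation p = 0.1, the smallest that 3 against 3 can give, and 0.25 adjusted over 5 ratios. Vil1 over Krt8 was 0.1, 0.0722 and 0.0761 in STAT6-/- and 0.0607, 0.0652 and 0.0612 in WT, a difference of 0.39 on the log2 scale (exact permutation p = 0.1, adjusted 0.25). Krt20 over Krt8 overlapped between the genotypes (0.307, 0.14 and 0.216 against 0.13, 0.149 and 0.126, exact permutation p = 0.2, adjusted 0.25), as did Krt20 over Krt19 (log2 difference 0.72, exact permutation p = 0.2). The ratios with Krt20 or Vil1 were added after the values were seen.

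Across the 6 libraries Krt8 and Krt19 varied almost as 1 gene, with a Pearson r on log2 CPM that rounded to 1. Krt20 and Vil1 had r = 0.97, Krt7 and Krt18 r = 0.93, and Krt18 and Krt23 r = 0.91. The lowest value among the 7 was 0.21, between Krt20 and Krt23. These values describe 6 libraries that share a split by genotype and sex and the same scaling. Among 10200 other genes whose mean log2 CPM was 3 or more, the most alike to Krt8 were Cdh1, the E-cadherin gene of epithelial junctions (r = 0.999), Gpc4 (0.997) and Vasp (0.997). For Krt19 they were Por (0.999), Vasp (0.998) and Cdh1 (0.998). Krt20 was closest to Mall (0.998), Daxx (0.995) and Kdm5c (0.995), and Vil1 to Copa (0.998), a coat protein of Golgi vesicles, Uso1 (0.995) and Hgs (0.995). Krt7 was closest to Kdm3b (0.997), Dsp (0.994), which encodes the desmosomal protein that anchors keratins, and Selenoi (0.994). Among the genes closest to Krt18 were Magi1 (0.996) and Cert1 (0.983), and Krt23 was closest to Myo5c (0.985), Afdn (0.983) and Ankrd11 (0.978). These genes were picked as the highest of 10200 values over 6 libraries, and r does not compare the size of a change. Beside Krt20 at 2.79-fold, Mall and Daxx differed 2.3-fold and 2.34-fold but Kdm5c 1.18-fold (adjusted p = 0.235). Kdm3b differed 1.08-fold (adjusted p = 0.560), beside Krt7 at 2.16-fold.

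Most other genes of the microvillus did not pass the test that Vil1 passed. Of 25 tested genes, 3 rose (Myo1d, Myo5b and Baiap2l1) and 0 fell in edgeR (8 and 2 at an unadjusted p under 0.05, and 9 and 2 by DESeq2), with a median log2 fold change of 0.42, and 12 did not overlap between the groups. Beside the 11.4% of all tested genes that passed as higher and the 46.5% without overlap, these counts are near the background. Myo1d, a class I myosin, stood at 325, 402 and 519 CPM in STAT6-/- and 190, 217 and 147 CPM in WT, a log2 fold change of 1.17 ± 0.24 (SE, adjusted p = 0.0207). Baiap2l1, which links membranes to actin, stood at 173, 245 and 278 CPM against 129, 120.5 and 100.1 CPM (0.99 ± 0.22, adjusted p = 0.0235). Myo5b, a myosin that carries vesicles to the apical membrane, rose by 0.76 ± 0.17 (adjusted p = 0.0253). For Myo1e, the next by p, the log2 fold change was 0.68 ± 0.21 (adjusted p = 0.0570), and for the most abundant, the microvillar adhesion protein Cdhr5, it was 0.38 ± 0.24 (adjusted p = 0.285). The actin bundlers Espn (espin, -0.52) and Pls1 (plastin 1, -0.14) did not pass either, and neither did Ezr (ezrin, 0.59) or Eps8 (0.86 ± 0.32, adjusted p = 0.0905). Of the 25 genes, 19 had a positive estimate. The villin relatives Avil and Vill were low, Avil at 1.09 ± 0.51 (adjusted p = 0.153) and Vill at 1.63, 1.57 and 2.43 CPM in STAT6-/- against 8.28, 0.31 and 0.397 CPM in WT. The count that rose was 8, with 1 fall, without STAT6-/- replicate 2, 1 without WT replicate 1, and 0 without WT replicate 2 or 3. With epithelial reference scaling it was 2, with 1 fall.

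**Figure D4:**
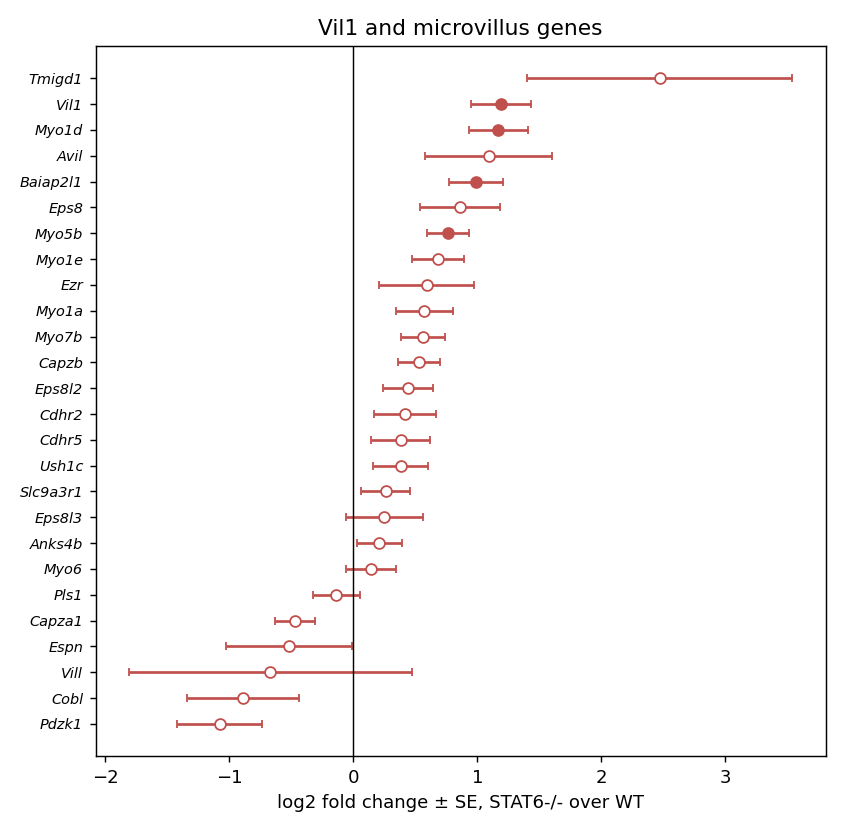
Log2 fold change with its SE, STAT6-/- over WT, of Vil1 and 25 microvillus genes in order of size. Filled points have an adjusted p below 0.05. Vil1 lies second from the top at 1.19, and only Myo1d, Baiap2l1 and Myo5b are filled beside it.

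Keratin filaments are held at desmosomes and by linker proteins. Of 18 tested genes of this kind, 2 rose (Jup and Dsc2) and 1 fell (Ppl), with a median log2 fold change of 0.40. Over all tested genes 11.4% passed as higher and 11.5% as lower, so these counts do not exceed the background. The same shares stand beside the counts of each list below. Jup, or plakoglobin, rose by 0.93 ± 0.27 (SE, adjusted p = 0.0457) and the desmosomal cadherin Dsc2 by 1.02 ± 0.24 (adjusted p = 0.0284). Periplakin (Ppl), a linker of stratified epithelium, stood at 5.18, 9.40 and 11.3 CPM in STAT6-/- and 44.9, 17.3 and 21.2 CPM in WT, and fell by 1.69 ± 0.45 on the log2 scale (adjusted p = 0.0375). Pkp3, a plakophilin, had 0.84 ± 0.26 (adjusted p = 0.0578), and the most abundant gene, Ywhaz of the 14-3-3 proteins that bind keratins, 0.38 (adjusted p = 0.243). Without 1 library the number that rose ran from 0 to 5, the latter without STAT6-/- replicate 2, and 0 passed in either direction without STAT6-/- replicate 1 or WT replicate 2 or 3. Without STAT6-/- replicate 3 or WT replicate 1, 1 rose and 0 fell. The Ppl call was thus also lost without WT replicate 1, where Ppl was highest and where the keratins of stratified epithelium stood high. With epithelial reference scaling 0 rose and 1 fell (4 and 2 at an unadjusted p under 0.05), so the calls of Jup and Dsc2 were lost, and DESeq2 gave 5 rises and 1 fall.

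The intermediate filaments of other cells did not share one direction. Of 10 tested genes, Gfap of glia (2.55 ± 0.72, adjusted p = 0.0445) and the nuclear lamin Lmnb1 (2.2 ± 0.55, adjusted p = 0.0323) rose. The muscle filament genes Des (-1.22 ± 0.34, adjusted p = 0.0417) and Synm (-2.12 ± 0.41, adjusted p = 0.0177) fell. Without WT replicate 2 or 3 none of the 10 passed, and without STAT6-/- replicate 1 or WT replicate 1 there was 1 call in each direction. Without STAT6-/- replicate 2 the calls were 3 and 1, and without STAT6-/- replicate 3 or with epithelial reference scaling they were 1 and 2. DESeq2 gave 4 and 2.

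Keratins outside the simple epithelial set were low in 5 libraries and high in 1. Their summed level was 27.0, 23.4 and 105 CPM in STAT6-/- and 3901, 19.2 and 22.8 CPM in WT. Krt5, the basal keratin of stratified epithelium, stood at 1403 CPM in WT replicate 1 and at most 0.397 CPM in the other 5 libraries. Its partner Krt14 stood at 784 CPM there against 0.607 to 9.26 CPM elsewhere. Of the 30 such keratins listed in any library, 11 were over 5 times higher in WT replicate 1 than in every other library, with values under 0.1 CPM in those libraries counted as 0.1 CPM (Krt1, Krt4, Krt5, Krt6a, Krt10, Krt13, Krt14, Krt15, Krt16, Krt17 and Krt75), and Krt24, Krt71 and Krt74 were at 0 in all. Only Krt84, a hair keratin, passed the test (13 were tested): it stood at 1.07, 0.627 and 2.28 CPM in STAT6-/- and 0.237, 0.186 and 0.284 CPM in WT (2.45 ± 0.61, adjusted p = 0.0313), and 0 of these keratins rose when a library other than STAT6-/- replicate 2 was left out. Without that one 2 rose, and without STAT6-/- replicate 3, 1 fell. The log2 fold change of Krt14 was -6.14 ± 2.44 (adjusted p = 0.107) and 0.49 without WT replicate 1. Of the members, WT replicate 1 was the highest WT library for Krt7, Krt18 and Krt23 and lay between the other 2 for Krt8, Krt19, Krt20 and Vil1. Without WT replicate 1 the log2 fold change was 1.42 for Krt20, 1.15 for Vil1, 0.80 for Krt8, 0.80 for Krt19, 0.32 for Krt18, 1.39 for Krt7 and 1.91 for Krt23, and none passed the test.

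**Figure D5:**
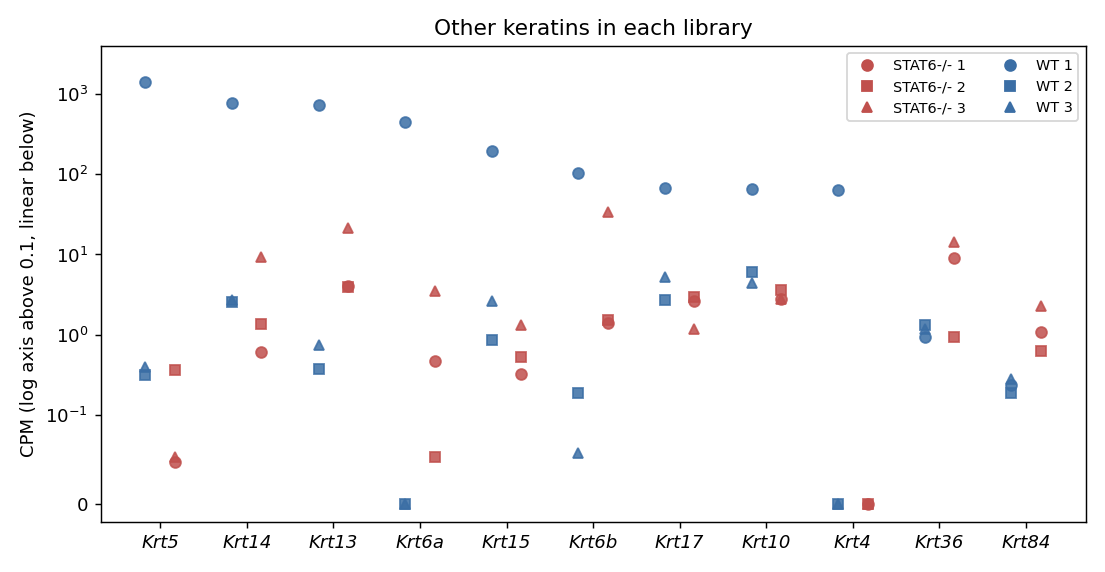
CPM of 11 keratins outside the simple epithelial set in each library, on an axis that is logarithmic above 0.1 and linear below. Red symbols are STAT6-/- libraries and blue symbols are WT libraries, with shape for the replicate number. The blue circle of WT replicate 1 stands far above the rest for Krt5, Krt14, Krt13, Krt6a, Krt15, Krt17, Krt10 and Krt4.

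General epithelial genes were compared beside the members. The summed level of 11 epithelial reference genes was 6578, 8126 and 8938 CPM in STAT6-/- and 6251, 7682 and 5358 CPM in WT, ranges that overlapped. Their median log2 fold change was 0.22, and 1 rose (the protease gene St14, 1.32 ± 0.25, adjusted p = 0.0169) and 1 fell (Rab25, a vesicle protein, -0.82 ± 0.21, adjusted p = 0.0321). Epcam, the most abundant, stood at 1562, 2157 and 2130 CPM in STAT6-/- and 1750, 2274 and 1540 CPM in WT (0.07 ± 0.25, adjusted p = 0.850). Cdh1 had a log2 fold change of 0.67 ± 0.25 (adjusted p = 0.0943). Without WT replicate 1, 2 or 3 none of the 11 passed, and 0 fell without STAT6-/- replicate 1 or 3.

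Markers of other cell types were compared as well, and those of smooth muscle and fat were lower in STAT6-/-. Of 6 smooth muscle markers 5 fell (Myh11, Acta2, Des, Cnn1 and Tagln), with a summed level of 2276 to 5151 CPM in STAT6-/- and 8692 to 10730 CPM in WT, without overlap. The number that fell was 1 without STAT6-/- replicate 1 or WT replicate 1, 2 without STAT6-/- replicate 2, and 0 without WT replicate 2 or 3, where 6 and 5 had an unadjusted p under 0.05. Fat markers summed to 0.366 to 7.72 CPM in STAT6-/- and 20.8 to 153 CPM in WT, and both tested genes passed. Adipoq fell by 5.11 ± 1.23 on the log2 scale (adjusted p = 0.0296) and Cfd fell by 4.56 ± 1.23 (adjusted p = 0.0401). Of the fat markers 0 fell without STAT6-/- replicate 1 or WT replicate 2 or 3, and 1 without WT replicate 1. Of 6 fibroblast markers Lum, a matrix proteoglycan gene, fell by 2.13 ± 0.47 (adjusted p = 0.0245), with 2 falls without STAT6-/- replicate 3 and 0 without STAT6-/- replicate 1 or WT replicate 2 or 3. Of 5 endothelial markers Vwf, the von Willebrand factor gene, rose by 2.02 ± 0.35 (adjusted p = 0.0149), with 4 rises without STAT6-/- replicate 2 and 0 without WT replicate 2 or 3. Of 5 neural markers the glial gene S100b fell by 1.72 ± 0.36 (adjusted p = 0.0213), with 0 falls without WT replicate 2 or 3. Mesothelial markers, of cells that also carry Krt7, Krt8, Krt18 and Krt19, summed to 4.02 to 13.7 CPM in STAT6-/- and 6.21 to 83.7 CPM in WT, and 0 of 4 passed in edgeR, at an unadjusted p under 0.05 also 0, or by DESeq2. Without WT replicate 1, 2 of 5 fell. Immune markers summed to 206 to 1174 CPM in STAT6-/- and 244 to 442 CPM in WT, with 1 of 7 higher (Cd3e), 5 without STAT6-/- replicate 2 and 0 without any other library. All 7 had a positive log2 fold change, with a median of 2.24, and 4 had an unadjusted p under 0.05. Goblet, tuft and endocrine markers summed to 2286 to 4285 CPM in STAT6-/- and 1832 to 2013 CPM in WT, without overlap. Of these, 1 of 8 was higher (Neurog3), 4 without STAT6-/- replicate 3 and 0 without STAT6-/- replicate 1 or any WT library. A positive log2 fold change was seen for 6 of the 8, and the most abundant, Muc2, had 0.82 ± 0.29 (adjusted p = 0.0835). Muc2, of goblet cells, made up most of the sum, with 3286, 3940 and 1961 CPM in STAT6-/- and 1817, 1702 and 1699 CPM in WT. The tuft cell genes Dclk1 and Trpm5 had negative estimates, -0.25 and -0.53 (adjusted p = 0.540 and 0.570). Squamous and urothelial markers summed to 3025 CPM in WT replicate 1 and at most 34.0 CPM elsewhere. Most of the sum in WT replicate 1 was Krt5, Krt14 and Krt13 (1403, 784 and 723 CPM), and the urothelial genes were not high there. Upk1a stood at 6.62 CPM in WT replicate 1 and at 8.25 and 7.83 CPM in WT replicates 2 and 3. Upk2 and Upk3a stood at most at 0.473 CPM in any library. Of 3 tested genes of this list Upk1a fell, by 1.28 ± 0.30 on the log2 scale (adjusted p = 0.0283). The pancreatic and gastric genes Cpa1 and Cblif were at 0 in all 6 libraries. The part of the muscle and fat differences in the rise of Krt20 and Vil1 was not tested.

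Most markers of the surface colonocyte, a cell that makes Krt20, did not pass the test. Of 12 tested, 1 rose (Slc9a3) and 1 fell (Car1), with a median log2 fold change of -0.29, and 5 had a positive estimate. The 12 summed to 20450, 30830 and 24950 CPM in STAT6-/- and 40140, 41090 and 30890 CPM in WT. The sums were lower in STAT6-/- without overlap, but STAT6-/- replicate 2 and WT replicate 3 nearly met. Lypd8, the most abundant, made up most of each sum, at 11930 to 18160 CPM in STAT6-/- and 19850 to 25800 CPM in WT. It had -0.57 ± 0.30 (adjusted p = 0.203), and Slc26a3 had -1.75 ± 0.62 (adjusted p = 0.0799). Ceacam1 (0.22, adjusted p = 0.474) and Ceacam20 (0.47, adjusted p = 0.0765) were higher in every STAT6-/- library than in WT. Car1, a carbonic anhydrase of the colonic surface, stood at 108, 144 and 224.5 CPM in STAT6-/- and 1500, 1922 and 1604 CPM in WT (-3.40 ± 0.33, adjusted p = 0.00732). Slc9a3, the apical sodium-proton exchanger, stood at 320, 40.6 and 4.50 CPM in STAT6-/- and 1.89, 6.39 and 2.04 CPM in WT (5.15 ± 1.49, adjusted p = 0.0481), highest in STAT6-/- replicates 1 and 2, and the groups overlapped. Its log2 fold change was 2.77 without STAT6-/- replicate 1. With epithelial reference scaling the list had 0 rises and 1 fall, and by DESeq2 3 and 2. It had 0 rises without STAT6-/- replicate 1 or any WT library, 2 without STAT6-/- replicate 2 or 3, 4 falls without STAT6-/- replicate 2 and 0 falls without WT replicate 3. Of 9 tested genes of the crypt base and of dividing cells, Mki67 (1.94 ± 0.48, adjusted p = 0.0319) and Top2a (2.06 ± 0.57, adjusted p = 0.0431), both of dividing cells, rose. None of that list rose without STAT6-/- replicate 1 or WT replicate 2 or 3, and 1 fell without STAT6-/- replicate 2. With epithelial reference scaling 0 rose (3 at an unadjusted p under 0.05), and by DESeq2 3 rose.

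Of 11 tested transcription factors of intestinal epithelium, 2 rose and 1 fell. Elf3, an epithelial ETS factor, rose by 0.85 ± 0.22 (adjusted p = 0.0337), while Hnf4g fell by 1.05 ± 0.18 on the log2 scale (adjusted p = 0.0149). Cdx1, of the family that binds the TTTATG site, had a log2 fold change of 0.87 ± 0.33 (adjusted p = 0.0939), and Hnf4a, the relative of Hnf4g and the most abundant of the list, 0.00 ± 0.23 (adjusted p = 0.999). The number that rose was 4 without STAT6-/- replicate 3, 1 without STAT6-/- replicate 1 and 0 without any WT library, and 0 fell without WT replicate 2 or 3. With epithelial reference scaling, or with GC and length trends removed, 0 rose (2 and 1 at an unadjusted p under 0.05) and the call of Elf3 was lost, while DESeq2 gave 4 rises and 1 fall.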

How the data were processed

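The authors deposited 1 table per library with expected counts and FPKM for each RefSeq transcript. The expected counts are estimated read numbers, not normalized between libraries, and the deposited FPKM values are per kilobase of transcript and relative to all mapped fragments, per the file headers. The submitters' processing notes name Bowtie2 2.2.5, RSEM 1.2.12 and mm10. Where a library did not list a transcript, its value was set to 0.

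Counts were added up per gene and rounded. Of 28238 transcripts, 27986 took a gene name from RefSeq (GRCm38.p6) and 149 from GENCODE M21, and 103 without a name, with 0.167% of counts, stayed separate entries. The genotypes were tested against each other in edgeR 4.0.16 (R 4.3.3): quasi-likelihood F test, TMM factors, filterByExpr, robust estimation, Benjamini-Hochberg over all 15066 tested genes, threshold 0.05. "Rose" and "fell" mean that a gene passed. Ratios of FPKM were compared by exact permutation. Lists were described by counts and medians. Named genes were the members, up to 4 of each list by smallest p with the most abundant, and the 3 most correlated with each member, of which a few are not reported here. Other genes, among them further brush border genes, keratins and markers, were chosen after their values were seen. The members and lists were chosen with earlier results of these data known. The fit was also run on simulated counts. These had no library that stood apart, so they do not bear on how calls depend on single libraries. Alternatives were other scalings and filters, DESeq2 1.42.0, limma 3.58.1, a replicate block, GC and length trends removed (added after the data were seen) and each library left out. Figures were drawn with matplotlib 3.10.9.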

Additional observations from a re-analysis of the deposited data

How the results depend on the processing

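All 7 members kept a positive log2 fold change in 20 of 20 alternatives. Krt20 passed in 15 and Vil1 in 17, Krt8 in 2 (0.87 with library size scaling, 0.84 with DESeq2), Krt19 in 1 (0.82 with DESeq2) and Krt7, Krt18 and Krt23 in 0. DESeq2 called 4 members higher. Leaving out 1 library gave 0 to 2 members, 1.27 to 1.76 for Krt20 and 1.06 to 1.36 for Vil1. The labels do not say that the replicate numbers pair the libraries. Same-numbered libraries had deviations correlated at 0.023, 0.044 and 0.134, and the other pairs at -0.109 to 0.054. With 3 libraries per group these values cannot settle whether the libraries were paired. With the replicate block 1 member was called, since Krt20 had 1.45 (adjusted p = 0.0625) and Vil1 1.19 (adjusted p = 0.0437). The type II to type I ratio was -0.07 on the log2 scale with expected counts.

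Calls over all genes, 1718 higher and 1731 lower, became 2713 and 2403 with DESeq2, 1174 and 1029 after removal of GC and length trends, 1219 and 1445 with the block, 736 and 2143 with epithelial reference scaling, and 1035 and 751 without STAT6-/- replicate 1. They became 2750 and 2440 when STAT6-/- replicate 2 was left out. Leaving out WT replicate 1 gave 656 and 751, WT replicate 2 gave 21 and 10, and WT replicate 3 gave 12 and 6. Epithelial reference scaling moved the median of all genes to -0.23.

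Of 62 other named genes 54 kept their direction. With epithelial reference scaling the log2 fold change was -0.03 for Afdn, -0.19 for Ankrd11, -0.10 for Cert1, -0.16 for Epcam, -0.13 for Kdm3b and -0.13 for Myo5c. With GC and length trends removed Epcam had -0.03 and Kdm3b -0.13. Leaving out 1 library gave -0.06 to 0.40 for Cert1, -0.05 to 0.25 for Epcam, -0.13 to 0.18 for Hnf4a and -8.03 to 0.49 for Krt14. Hnf4a, at 0.00, had 0.02 with RLE, 0.06 with library size, 0.04 with no filter, 0.01 with the block, 0.02 with DESeq2, 0.01 with voom and 0.08 with either FPKM fit. The cause of these changes was not tested. Krt23, with 11 to 169 counts per library, had the fewest counts of the members.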
